A study of Mus musculus with 6 samples.

Results

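Syndecans, glypicans and perlecan are heparan sulfate proteoglycans, proteins that carry long sulfated sugar chains at the cell surface or in the basement membrane. Their chains bind growth factors such as FGF2 and HGF and present them to their receptors, and in skeletal muscle the muscle stem cells (MuSCs, also called satellite cells) are surrounded by them. Syndecans span the membrane, glypicans are held on its outer face by a lipid anchor, and perlecan is secreted into the basement membrane that encloses each myofiber. The 9 genes examined here were taken by symbol from 49671 genes in the files: the syndecans Sdc1, Sdc2, Sdc3 and Sdc4, the glypicans Gpc1, Gpc3, Gpc4 and Gpc6, and Hspg2, which encodes perlecan.

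RNA-Seq libraries were compared from MuSCs of 3 mice treated with resolvin D1 (RvD1), a proresolving lipid mediator derived from docosahexaenoic acid, and 3 mice given vehicle. All 6 were female C57BL/6 mice aged 4 to 6 months whose tibialis anterior (TA) muscles had been injured with 50 μL of 1.2% BaCl2, and cells were taken on day 3. RvD1 was injected intraperitoneally each day at 100 ng, and vehicle was saline with 0.1% ethanol. Each library came from 1 mouse, with its 2 TA muscles pooled, and no uninjured muscle is among the groups.

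The libraries held 16148026 to 28149176 expected counts. The sort selected for β1-integrin and CXCR4 and against Sca-1, CD11b, Ter119 and CD45, and the sample labels add CD31. All 12 myogenic markers examined passed the count filter, and their summed level was 3253 to 4291 TPM, a transcript level scaled for transcript length and library size. Summed levels were 8.29 to 24.9 TPM for 10 endothelial markers and 41.4 to 92.7 TPM for 10 leukocyte markers, but 739 to 1721 TPM for 10 fibro-adipogenic markers, mostly Col3a1, Dcn and Col1a1. In sorted bulk cells, fewer cells of a type and less RNA per cell cannot be told apart.

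The syndecans share a short cytoplasmic tail that binds PDZ-domain proteins such as syntenin, and their coding ends show what kind of family the reads had to distinguish. The last 60 coding bases before the stop codon are given in the 5′ to 3′ direction from GENCODE M21 transcripts on GRCm38, with capitals marking the last 4 codons, which encode the PDZ-binding end. They lie at chr12:8791745-8791804 on the plus strand for Sdc1, chr15:33032478-33032537 on the plus strand for Sdc2, chr4:130822747-130822806 on the plus strand for Sdc3 and chr2:164426089-164426148 on the minus strand for Sdc4.
Sdc1: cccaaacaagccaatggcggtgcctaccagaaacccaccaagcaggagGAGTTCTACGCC
Sdc2: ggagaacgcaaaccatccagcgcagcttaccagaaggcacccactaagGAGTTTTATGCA
Sdc3: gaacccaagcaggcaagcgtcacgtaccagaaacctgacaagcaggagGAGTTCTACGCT
Sdc4: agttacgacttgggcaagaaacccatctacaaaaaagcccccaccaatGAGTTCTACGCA

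Compared base by base back from the stop codon without gaps, Sdc1 and Sdc3 were identical at 37 of 60 bases and Sdc2 and Sdc4 at 30. The other 4 pairs were identical at 21 to 25. A codon gained or lost between 2 genes shifts the bases upstream of it, so a lower count need not mean that the tails are less alike. In the 12 capital bases, 9 to 11 were identical in every pair. Despite this likeness, 0 windows of 76 bases, the length of a read, were shared between any 2 of the 9 genes, so no read matching a member exactly could also match another member.

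Windows shared with genes outside the family were found for 4 members. Gpc1 (chromosome 1, 92831645 to 92860779) had exons overlapping those of Ankmy1 on the opposite strand, which held 902 of its 5154 windows (17.5%). The deposited counts of Ankmy1 were 0.213% to 0.896% of those of Gpc1. Sdc3 (chromosome 4, 130792537 to 130826319) shared 266 of 5911 windows (4.5%) with Gm26716, also on the opposite strand, which was at 5.98 to 9.49 TPM. For Sdc1 and Sdc2 the share was 0.104% and 0.579%.

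Gpc1 was the most abundant member in each of the 6 libraries, and the order of the members was much the same in both groups. Gpc1, a glypican known to hold FGF2 at the surface of myogenic cells, was at 285, 340 and 335 TPM in RvD1 replicates 1, 2 and 3 and at 333, 318 and 289 TPM in vehicle replicates 1, 2 and 3. These ranges overlapped, with the lowest value in RvD1 replicate 1. Averaged over the 6 libraries, Gpc1 (317 TPM) stood at the 95.8th percentile of the 14494 genes that passed the count filter.

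Sdc4 and Sdc2 came next. Sdc4, a receptor of focal adhesions that also marks satellite cells, was at 168, 130 and 104 TPM with RvD1 and at 132, 94.9 and 110 TPM with vehicle. Sdc2, the syndecan best known from mesenchymal cells, was at 134, 97.2 and 104 TPM with RvD1 and at 104, 99.8 and 106 TPM with vehicle. For both genes the highest library was RvD1 replicate 1 and the other libraries of the 2 groups overlapped. Sdc4 exceeded Sdc2 in 5 of the 6 libraries, so the order of this pair was not the same in every mouse.

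Sdc1 and Gpc4 held the fourth and the fifth place in every library. Sdc1, best known from epithelia and plasma cells and also made by myoblasts, was at 65.5, 67.9 and 74.8 TPM with RvD1 and at 64.3, 60.5 and 68.1 TPM with vehicle. Gpc4, a glypican studied mainly in the developing brain, was at 45.9, 43.2 and 46.7 TPM with RvD1 and at 48.1, 44.0 and 39.0 TPM with vehicle. Their libraries were among the least variable, and the groups overlapped for both genes.

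Sdc3, the other syndecan used as a satellite cell marker, was lower than the remaining syndecans, at 23.1, 25.2 and 27.0 TPM with RvD1 and 25.7, 21.4 and 20.4 TPM with vehicle. Hspg2 was at 24.4, 20.4 and 19.2 TPM with RvD1 and 24.2, 20.4 and 17.2 TPM with vehicle. Sdc3 exceeded Hspg2 in 5 of 6 libraries, and the groups overlapped for both. Perlecan is a very large protein encoded by a very long transcript, so its 2911 to 5030 expected counts per library correspond to a modest level per length.

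Gpc6 and Gpc3 were the least abundant members. Gpc6 was at 9.50, 7.42 and 9.93 TPM with RvD1 and at 8.44, 8.68 and 8.02 TPM with vehicle. Gpc3, an X-linked glypican whose loss causes an overgrowth syndrome in humans, was at 20.4, 6.99 and 4.76 TPM with RvD1 and 9.53, 5.88 and 3.90 TPM with vehicle. Gpc6 exceeded Gpc3 in 4 of the 6 libraries, and the Gpc3 values of the groups interleaved, with RvD1 replicate 1 far above the rest. The smallest count of any member was 100 expected counts, for Gpc3 in vehicle replicate 3.

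**Figure D1:**
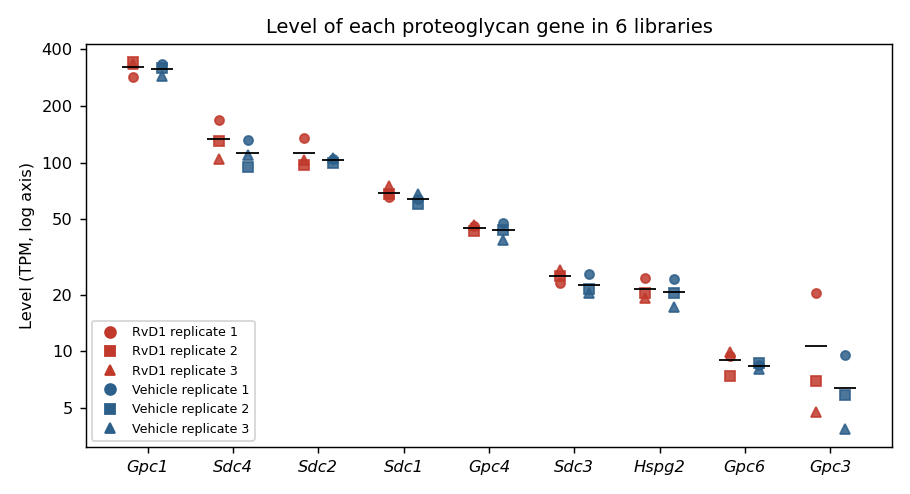
Level of each of the 9 proteoglycan genes in TPM (log axis), ordered by the mean over 6 libraries, with RvD1 libraries in red, vehicle libraries in blue, a symbol for each replicate number and a black line at each group mean. Gpc1 lies between 285 and 340 TPM in every library, and Gpc3 has the widest spread, from 3.90 to 20.4 TPM.

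The makeup of each subfamily was then expressed as a share of its summed TPM, which does not depend on the level of other genes. Sdc4 gave 39.1% ± 4.80 (SD, n = 3) of the 4 syndecans with RvD1 and 37.0% ± 3.18 with vehicle. Sdc2 followed with 32.7% ± 2.13 and 34.3% ± 2.13 (SD, n = 3), and Sdc1 with 20.7% ± 3.70 and 21.3% ± 1.42. Sdc3 gave the smallest share in every library, from 5.91% to 8.72%. Each difference between group means was smaller than the larger of the 2 SDs.

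Among the 4 glypicans listed, Gpc1 gave 83.0% ± 3.50 of the summed TPM with RvD1 and 84.3% ± 0.781 with vehicle (SD, n = 3). Gpc4 contributed 11.8% ± 0.922 and 11.7% ± 0.282, and Gpc6 2.34% ± 0.410 and 2.26% ± 0.131. The share of Gpc3 was 5.65% in RvD1 replicate 1 and 1.15% to 2.39% in the other 5 libraries, where the groups overlapped. The syndecans together summed to 340 ± 44.0 TPM in RvD1-treated and 303 ± 25.1 TPM in vehicle-treated mice, and these glypicans to 385 ± 20.7 TPM and 372 ± 30.3 TPM (SD, n = 3). Of the glypicans that are not members, Gpc2 averaged 1.93 TPM and Gpc5 0.0183 TPM.

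**Figure D2:**
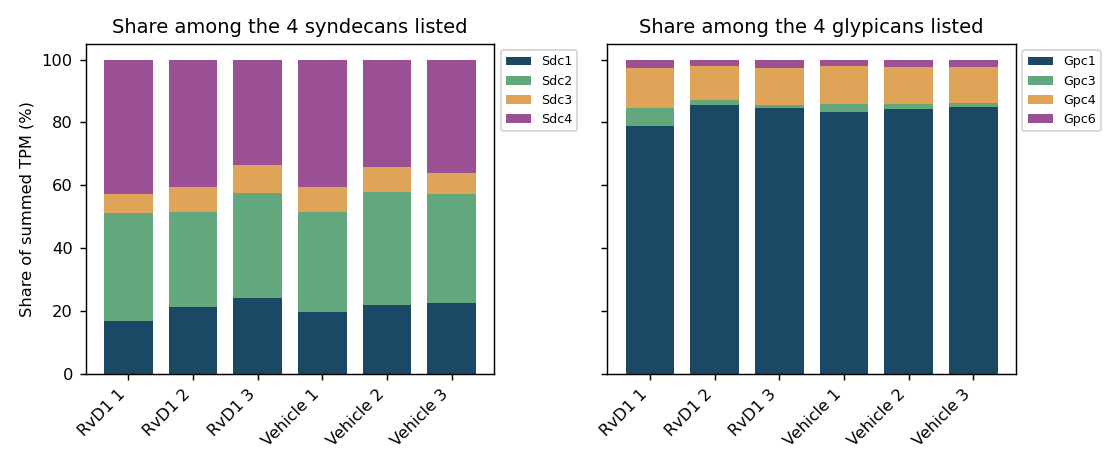
Share of each gene in the summed TPM of the 4 syndecans (left) and of the 4 glypicans listed (right), in percent, with 1 stacked bar per library. Gpc1 takes 79.0% to 85.5% of the glypican total in every library, and its lowest share, in RvD1 replicate 1, goes with the largest share of Gpc3, 5.65%.

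Whether RvD1 changed these genes was tested with edgeR's quasi-likelihood test on counts of all 14494 genes that passed the filter, which included the 9 members. No difference between RvD1-treated and vehicle-treated mice was detected for any of the 9 with 3 mice per group. The number of members with a Benjamini-Hochberg adjusted p under 0.05 was 0 of 9, and it was 0% of all genes tested. At an unadjusted p under 0.05 it was again 0 of 9, compared with 3.47% of all genes, and DESeq2 gave 0 members at either threshold. The groups did not overlap in CPM (counts scaled for library size) for 0 of 9 members, compared with 9.62% of all genes. The median log2 fold change was 0.03 for the members and 0.01 for all genes tested.

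For 8 of the members, the 95% interval of the fold change lay between 0.785-fold and 1.47-fold. For Sdc4 the log2 fold change was 0.17 (standard error 0.17, edgeR adjusted p = 0.971), with a CPM of 193 ± 43.4 with RvD1 and 171 ± 24.3 with vehicle (SD, n = 3). On the log2 scale this became 0.0046 when RvD1 replicate 1 was left out and 0.33 when RvD1 replicate 3 was. Sdc3 and Sdc1 had log2 fold changes of 0.08 (standard error 0.11) and 0.05 (standard error 0.10), and that of Sdc1 was −0.0020 without RvD1 replicate 3. For Sdc2, Gpc1, Gpc4, Gpc6 and Hspg2 the log2 fold change lay between −0.04 and 0.03, and its sign changed under at least 1 other scaling or with 1 library left out. The narrowest interval was that of Gpc4, 0.840-fold to 1.14-fold.

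**Figure D3:**
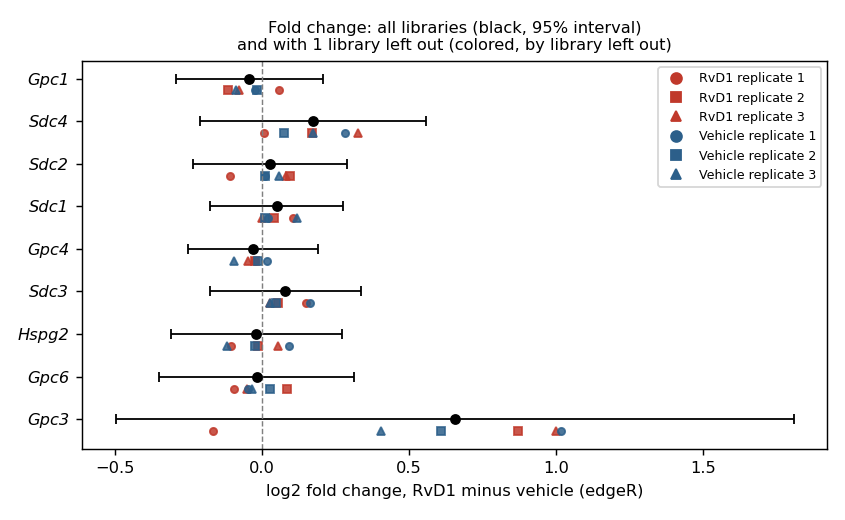
The log2 fold change of each member (RvD1 minus vehicle) from edgeR with all 6 libraries (black, bars are the 95% interval) and with 1 library left out (colored symbols under it, red for an RvD1 library left out and blue for a vehicle library). All black intervals include 0, and the estimate for Gpc3 moves from 0.65 to −0.17 when RvD1 replicate 1 is left out.

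Gpc3 was the member with the largest fold change and the largest variation. Its CPM was 25.7, 9.31 and 6.10 with RvD1 and 12.6, 8.16 and 5.43 with vehicle. The log2 fold change was 0.65 (standard error 0.51, 95% interval −0.50 to 1.81, edgeR adjusted p = 0.971), and it was −0.17 without RvD1 replicate 1. With any other single library left out it was 0.40 to 1.02. The SD of log2 CPM over the 6 libraries was 0.81 for Gpc3, at the 96.2th percentile of all genes tested, against a median of 0.20. That of the other 8 members ranged from 0.08 for Gpc4 to 0.26 for Sdc4, and 7 of them lay below the median.

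Markers of other cell types were measured in the same libraries. RvD1 replicate 1, which had the highest Gpc3, also had the highest summed level of fibro-adipogenic markers (1721 TPM, against 739 to 1080 in the other libraries), mural cell markers (630 TPM, against 310 to 461) and Schwann cell markers (197 TPM, against 80.6 to 116). From RvD1 replicate 2 to 3, Gpc3 fell from 6.99 to 4.76 TPM, whereas the fibro-adipogenic (739 and 1080 TPM), mural (310 and 461) and Schwann sums (98.1 and 111) rose. Over vehicle replicates 1, 2 and 3, Gpc3 fell (9.53, 5.88 and 3.90 TPM), as did the mural and Schwann sums. The fibro-adipogenic sum did not fall steadily over them (930, 849 and 927 TPM). Of the fibro-adipogenic list 8 of 10 genes passed the filter, 7 with a log2 fold change above 0 and 1 below, and Tcf21 and Pi16, which did not pass, were at 0 to 0.91 TPM. All 8 mural, all 8 Schwann and 8 of 12 myogenic markers had a log2 fold change above 0, compared with 7749 of all 14494 genes. All 10 leukocyte, all 10 proliferation and 8 of 10 endothelial markers had a log2 fold change below 0, compared with 6745 of all genes. The groups did not overlap for 2 of 10 leukocyte, 2 of 8 Schwann, 1 of 8 mural and 1 of 8 fibro-adipogenic markers tested, compared with 9.62% of all genes. Of these, the 2 leukocyte markers and the fibro-adipogenic one, Ly6a, were lower with RvD1, and the Schwann and mural ones were higher. RvD1 replicate 1 also had the lowest sum of 10 proliferation markers (1645 TPM, against 2080 to 2339). The part of these differences in the Gpc3 value was not tested. Gpc3 lies 107.2 kb from Gpc4 on the X chromosome, on the same strand, and Gpc4 differed little between libraries, with a CPM between 65.4 and 76.7.

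**Figure D4:**
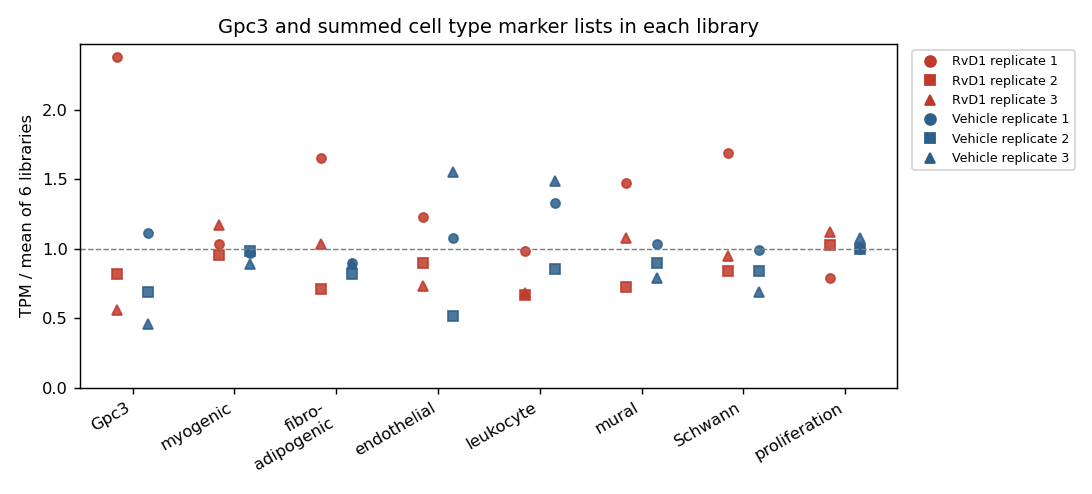
Gpc3 and the summed TPM of 7 cell type marker lists in each library, divided by the mean of the 6 libraries. RvD1 replicate 1 (red circle) is the highest library for Gpc3 (20.4 TPM) and for the fibro-adipogenic, mural and Schwann lists, and the lowest for the proliferation list.

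The genes whose pattern over the 6 libraries was closest to that of the most abundant member of each kind were found from the root mean square difference in log2 CPM after each gene's mean was subtracted. For Sdc4 they were Phc3, a Polycomb group gene (0.05), and Prdm2 (0.06), where the median over all genes was 0.32. The closest to Gpc1 were Pptc7 (0.03) and Prps2 (0.03), against a median of 0.22. Hspg2 was closest to Notch1, the receptor whose activity keeps satellite cells from differentiating (0.02), and Fam13b (0.03), against 0.25. These are the smallest distances over all genes tested, so they lie below the median by construction, and they describe 6 libraries only.

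Heparan sulfate chains are built on a core protein by a fixed series of enzymes, trimmed outside the cell and finally degraded in lysosomes. Over 7 lists of genes for these steps and for related proteoglycans and binding partners, 75 of 88 genes passed the count filter. Of these, 55 had a log2 fold change above 0 and 20 below, compared with 7749 above 0 among all 14494 genes, and the median was 0.10 against 0.01. Without RvD1 replicate 1, 42 were above 0 and 33 below with a median of 0.01, and without vehicle replicate 1 the median was 0.16. The number with an adjusted p under 0.05 in edgeR was 0 of 75, and 2 of 75 had an unadjusted p under 0.05, compared with 3.47% of all genes. The groups did not overlap for 4 of the 75, all higher with RvD1, compared with 4.8% of all genes in that direction.

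Among other proteoglycans that carry or can carry heparan sulfate, Cd44, the hyaluronan receptor, averaged 239 ± 6.81 TPM in RvD1-treated and 236 ± 8.77 TPM in vehicle-treated mice, and Col18a1, a basement membrane collagen, 83.1 ± 15.7 TPM and 69.3 ± 8.95 TPM (SD, n = 3). Agrn and Tgfbr3, the other core proteins of the list best known for such chains (chosen after their values were seen), ranged from 7.07 to 14.1 TPM and from 6.38 to 26.6 TPM over the libraries. Gpc1 was thus above each of the other 8 members and above each of these 4 genes in mean TPM. Of the 8 genes tested in this list, 6 had a log2 fold change above 0 and 0 had an adjusted p under 0.05 in edgeR, or an unadjusted p under 0.05. The median of this list was 0.21, and 0.03 without RvD1 replicate 1.

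None of the chain-building genes had an adjusted or unadjusted p under 0.05 in edgeR. Ugdh, which makes the UDP-glucuronic acid used in the chain, averaged 111 ± 30.3 TPM in RvD1-treated and 98.7 ± 19.0 TPM in vehicle-treated mice. Ext2, a subunit of the polymerase that lengthens the chain, averaged 88.9 ± 12.7 TPM and 71.4 ± 9.01 TPM (SD, n = 3). All 14 genes of the linkage and synthesis list were tested, with a median log2 fold change of 0.08 and a range from −0.06 to 0.71.

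Sulfation of the chains decides which growth factors they bind. In the modification list Slc35b2, a Golgi transporter of the sulfate donor PAPS, was the most abundant (134 ± 13.1 TPM with RvD1 and 129 ± 1.59 TPM with vehicle, SD, n = 3), followed by Glce, the epimerase (58.8 ± 3.91 and 56.0 ± 2.80 TPM). Only 13 of its 20 genes passed the filter. The 7 that did not were Hs6st3 and 6 of the 7 3-O-sulfotransferases, Hs3st1, Hs3st2, Hs3st3a1, Hs3st4, Hs3st5 and Hs3st6, each with a mean under 0.5 TPM, which were singled out after their values were seen. Hs3st3b1 was the remaining one, with a mean of 3.44 TPM over the libraries.

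Papss2, which makes PAPS, was the pathway gene with the smallest unadjusted p. It was at 2.41, 1.55 and 1.99 TPM with RvD1 and at 0.99, 1.08 and 1.22 TPM with vehicle, and the groups did not overlap. Its log2 fold change was 0.75 (standard error 0.27, edgeR unadjusted p = 0.0231, adjusted p = 0.971). Papss1, the other PAPS synthase, averaged 44.1 TPM over all libraries with a log2 difference of −0.08 (standard error 0.10). Papss2 therefore made up a small part of the PAPS synthase transcripts in both groups.

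Of the genes that trim or release the proteoglycans, Mmp14, a membrane metalloproteinase, averaged 84.4 ± 38.2 TPM in RvD1-treated and 65.6 ± 12.8 TPM in vehicle-treated mice, and Adam10, a sheddase, 68.2 ± 7.95 TPM and 62.2 ± 3.86 TPM (SD, n = 3). Of 12 genes 9 were tested, 7 with a log2 fold change above 0, a number that was 3 of 9 without RvD1 replicate 1. The median log2 fold change was 0.17 with all libraries and −0.04 without that one. Hpse2 and Mmp7 were at 0 TPM in every library.

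In the lysosomal list all 8 genes were tested, and Gusb and Hgsnat were the most abundant, with 53.9 ± 2.28 and 52.9 ± 3.54 TPM with RvD1 and 55.5 ± 1.72 and 54.0 ± 4.42 TPM with vehicle (SD, n = 3). Ids, the sulfatase deficient in Hunter syndrome, was at 19.5, 15.8 and 14.7 TPM with RvD1 and at 13.2, 13.3 and 10.4 TPM with vehicle, with no overlap between the groups. Its log2 fold change was 0.33 (standard error 0.14, edgeR unadjusted p = 0.0418, adjusted p = 0.971). Without RvD1 replicate 1, 4 of the 8 genes of this list were above 0. The number of pathway genes at an unadjusted p under 0.05 in edgeR was then 0, beside 637 of all 14725 genes. Without RvD1 replicate 2 it was 12, beside 1016 of 14882, and with any other single library left out it was 1 or 2. With limma on log2 TPM it was 7 for a pseudocount of 1 and 8 for 0.1, beside 717 and 711 of 14494 genes.

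The cytoplasmic partners of the syndecans include Sdcbp, which encodes syntenin, which averaged 306.5 ± 41.4 TPM in RvD1-treated and 301 ± 8.90 TPM in vehicle-treated mice, and Actn4, an actin cross-linker, with 403 ± 27.8 TPM and 360 ± 21.5 TPM (SD, n = 3). Of 11 partners tested, 5 had a log2 fold change above 0 and 6 below, with a median of −0.02. In counts, the log2 fold change of Actn4 was 0.02 (standard error 0.08).

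The list of proteoglycans and related leucine-rich proteins not known for heparan sulfate had the largest median log2 fold change, 0.47, and 12 of the 12 tested were above 0. It joins carriers of chondroitin or dermatan sulfate, such as Dcn, with Fmod, Lum and Ogn, which are known for keratan sulfate. None had an adjusted p or an unadjusted p under 0.05 in edgeR. Dcn, which encodes decorin, a collagen-binding matrix proteoglycan, was at 450, 182 and 284 TPM with RvD1 and 196, 203 and 225 TPM with vehicle. Fmod, which encodes fibromodulin, a keratan sulfate proteoglycan, was at 275, 57.1 and 124 TPM with RvD1 and 84.3, 63.9 and 85.8 TPM with vehicle. For both, RvD1 replicate 1 was the highest and RvD1 replicate 2 the lowest library. Without RvD1 replicate 1, the number above 0 was 5 of 12 and the median was −0.01. Dcn and Lum of this list are also fibro-adipogenic markers and Cspg4 is a mural marker, and the part of those cells in these values was not tested.

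**Figure D5:**
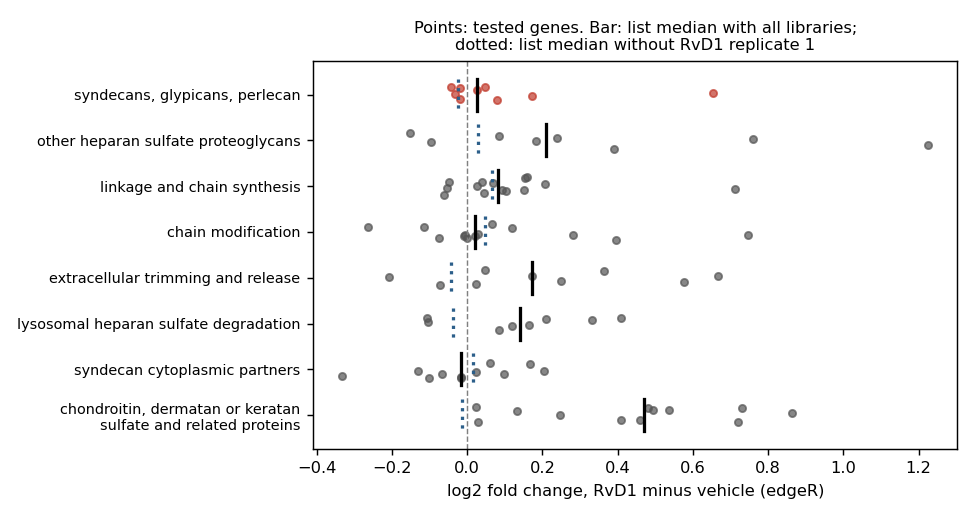
The log2 fold change (RvD1 minus vehicle, edgeR) of each tested gene of the 9 members (red) and of the 7 related lists (gray), with the list median for all libraries (black bar) and without RvD1 replicate 1 (dotted bar). The median of the chondroitin, dermatan or keratan sulfate list moves from 0.47 to −0.01, and that of the 9 members from 0.03 to −0.02.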

How the data were processed

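MuSCs were sorted from injured TA muscles, and cDNA was made with SMART-Seq v4 and sequenced as single-ended 76-base reads. The authors aligned the reads to mm10 with STAR 2.5.0a and quantified genes with RSEM; the annotation and any strand setting are not given in the sources used here. The deposited expected counts are not scaled for depth, whereas for TPM and FPKM the authors corrected for length and depth. After 1 stray header line was removed, expected counts were rounded to whole numbers and tested for 14494 genes with edgeR 4.0.16 in R 4.3.3 (filterByExpr, TMM, quasi-likelihood test, Benjamini-Hochberg adjustment, threshold 0.05). Standard errors and 95% intervals were derived from edgeR's F statistic. Levels were compared between genes as TPM, and CPM were scaled with TMM factors. A count of 3 corresponded to 0.107 to 0.186 CPM, a floor that covers counting error only.

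Alternatives were DESeq2 1.42.0, other scaling factors, no count filter, a replicate block and each library left out. Others were log2 values after adding 1 to TPM or FPKM (for TPM also 0.1). Limma 3.58.1 with voom was run without surrogate variables and with 1 or 2 removed (sva 3.50.0). The study also removed surrogate variables before limma, but the paper gives neither their number nor a count filter. Removing 1 or 2, and keeping 26518 genes for those fits, were choices made here. The tests were tested on simulated data. Members and lists were chosen with earlier results of these data known. Named pathway genes were the 2 of each list with the highest mean TPM and those with an unadjusted p under 0.05. Other pathway genes given with values (Gpc2, Gpc5, Agrn, Tgfbr3, Papss1, Hpse2, Mmp7 and the 3-O-sulfotransferases) were chosen after their values were seen. Gene positions and transcripts were taken from GENCODE M21.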

Additional observations from a re-analysis of the deposited data

How the results depend on the processing

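The 9 members had no adjusted p under 0.05 under any of the 11 alternatives that kept all libraries or with any 1 library left out, a number of 0 throughout. Among all genes the number was 12 of 26641 without a count filter. With 1 library left out it was 0 to 1, the 1 without RvD1 replicate 3. It was 0 of 26518 with 1 surrogate variable removed and 1727 of 26518 with 2 removed. Those fits subtracted the surrogate variables first and did not count the degrees of freedom they use, so their p-values are likely too small. The paper, which does not state how many it removed, reported no gene under this threshold. With 2 removed, 5 of the 88 genes of the related lists were under it, a share no larger than the 1727 of 26518 among all genes. Those lists include genes not known for heparan sulfate, and a few without counts that were not in that fit. Sdc1, Sdc3, Sdc4 and Gpc3 kept their sign under the alternatives with all libraries. Signs of small log2 fold changes turned as follows, and the cause was not tested. With 1 and 2 surrogate variables removed Sdc2 was at −0.0055 and −0.0053 and Gpc1 at 0.021 and 0.023. With library totals only Gpc4 was at 0.0033, Gpc6 at 0.019 and Hspg2 at 0.015. With limma-voom without surrogate variables Gpc4 was at 0.0075 and Hspg2 at 0.022. On log2 TPM with a pseudocount of 1 and of 0.1, respectively, Gpc1 was at 0.028 and 0.028, Gpc4 at 0.053 and 0.054, Gpc6 at 0.076 and 0.083 and Hspg2 at 0.055 and 0.057. On log2 FPKM Gpc4 was at 0.0061, Gpc6 at 0.033 and Hspg2 at 0.0088. On these TPM scales the median of all genes was 0.08 and 0.09, against 0.01. With 1 library left out, the ranges were −0.0020 to 0.12 for Sdc1, −0.11 to 0.094 for Sdc2, −0.12 to 0.056 for Gpc1, −0.17 to 1.02 for Gpc3, −0.095 to 0.018 for Gpc4, −0.098 to 0.084 for Gpc6 and −0.12 to 0.091 for Hspg2. With both replicate 1 libraries left out, a choice made after seeing the data, Sdc2 was at −0.13, Gpc1 at 0.072, Gpc4 at 0.019, Gpc3 at 0.19 and Sdc3 at 0.23 (edgeR unadjusted p = 0.0442, adjusted p = 0.987). Subfamily shares moved by less than the SD between libraries with FPKM or with 1 library left out.

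Replicate numbers recur in both groups but nothing states that they pair mice, so the numbers were not taken as pairs. Deviations of same-numbered libraries from their group means correlated across genes at 0.31, −0.00071 and 0.13 for numbers 1, 2 and 3. Differently numbered libraries were not compared, so these values cannot decide whether the numbers pair mice. With the replicate block, 0 genes had an adjusted p under 0.05 in edgeR, and 896 genes had an unadjusted p under 0.05, against 503 without it. Gpc3 then had a log2 fold change of 0.48 (edgeR unadjusted p = 0.0472, adjusted p = 0.791), and no call of a member changed. The unadjusted p of Gpc3 was also under 0.05 without a count filter (edgeR unadjusted p = 0.0388, adjusted p = 0.885). With 2 surrogate variables removed it was under 0.05 as well (limma unadjusted p = 0.041, adjusted p = 0.175), in a fit whose p-values are likely too small. An unadjusted p under 0.05 was found for 1143 of 26641 genes without the filter and for 6706 of 26518 with 2 surrogate variables removed.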
